A study of Mus musculus with 56 samples.

Results

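The respiratory chain and ATP synthase subunits described here are the genes whose symbols begin Nduf with a subunit letter and number, Sdha to Sdhd, Uqcr, Cox4i, Cox5 to Cox8 or Atp5 in the platform's probe annotation. The rule used names only and no measured value. It found 81 genes of the 18193 that had a probe set of their own, namely 35 of complex I, 4 of complex II, 8 of complex III, 17 of complex IV and 17 of ATP synthase. Genes were put into complexes by symbol alone, so Ndufa4, whose protein is known as a subunit of complex IV, is counted with complex I. Of the 81 genes, 78 passed the filter on low signal that 12351 genes in all passed. Cox7b2, Cox8c and Ndufb4 lay below it, at mean levels of 4.37, 5.34 and 4.92, and are not counted further. Ndufa11 and Ndufs6 were read only by probe sets that also carry other symbols and were not analysed here.

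The inner mitochondrial membrane carries these complexes. Complex I (NADH dehydrogenase) and complex II (succinate dehydrogenase) pass electrons to coenzyme Q, complex III hands them to cytochrome c, and complex IV (cytochrome c oxidase) gives them to oxygen. Complexes I, III and IV pump protons, and ATP synthase uses the return flow of protons to make ATP. Most subunits are coded in the nucleus, and slow, oxidative muscle fibres hold more mitochondria than fast ones. Several subunits of complex IV exist as a ubiquitous form and as a form of heart and skeletal muscle: Cox6a1 and Cox6a2, Cox7a2 and Cox7a1, Cox8a and Cox8b.

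RNA of the gastrocnemius, a calf muscle of mostly fast fibres, was measured on 56 expression arrays from 55 female C57BL/6 mice. Mice breathed 4% mainstream cigarette smoke, or air as a sham exposure, through the nose for 2 hours a day on 5 days a week. Smoke and air groups were taken after 2, 12 and 24 weeks, beside untreated mice at week 0. In the cessation arms, 12 weeks of smoke were followed by 12 weeks of sham exposure. The labels call these arms FA and RA and define neither abbreviation. The label FA also stands on the sham air groups. Each of the 9 groups had 6 mice, except smoke at 12 weeks, which had 7 mice on 8 arrays. The mouse with 2 arrays entered as their mean. The labels give no age, and air mice of 2 and 24 weeks therefore differed in age and in length of sham exposure together. The protocol speaks of mice drawn at random within each group, so the replicates are separate animals.

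Muscle genes were measured throughout: the mean of 10 skeletal muscle markers lay between 13.40 and 13.54 on every array. In 12 arrays, Glycam1, a gene of lymph node vessels, had an intensity between 6944 and 10546, while the other 44 arrays stayed at or below 306.7. Of the lymph node and lymphocyte markers 13 were measured, and 11 of them passed the filter. The mean level of the 13 was 8.39 to 10.96 in those 12 arrays and 5.10 to 6.45 in the other 44, and none was listed at 0. The 12 arrays were 1 each of untreated, air at 2 weeks, air at 24 weeks and cessation FA, 2 of smoke at 12 weeks, and 3 each of smoke at 24 weeks and cessation RA. Values are given with these arrays. They are given without them for some comparisons only, so a value given once may differ without these arrays. Replicate 6 of smoke at 24 weeks, 1 of the 12, stood apart from its group and is named where it decides a value. In whole muscle, fewer cells of a type and less RNA per cell cannot be told apart.

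All levels are log2 of the deposited intensity plus 16. The error of a level is the SD between mice, and the error of a difference is the SE of a linear model fitted to 12351 genes. A gene was called where its adjusted p from limma, over all 12351 genes, was under 0.05. Levels of different genes come from different probes and are not compared with each other.

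The upstream sequences of 4 complex IV genes are shown, picked by their values across arrays, as given further on. The ubiquitous forms Cox6a1 and Cox8a were high in all 12 arrays of high Glycam1, and the muscle forms Cox7a1 and Cox8b deviated less. The ubiquitous Cox7a2, which was not high there, is not shown. A part of the sequences in these values was not tested. Each sequence is the 250 bases before the gene's start, from RefSeq on GRCm38.p6, read 5′ to 3′ on the strand of the gene. Capitals mark matches on either strand to the palindromic motif of nuclear respiratory factor 1 (NRF1) or to CCGGAAG, the core of ETS factors such as GABP. The windows are chr5:115348959-115349208 (minus strand) for Cox6a1, chr19:7217617-7217866 (minus) for Cox8a, chr7:30183921-30184170 (plus) for Cox7a1 and chr7:140900447-140900696 (minus) for Cox8b.
Cox6a1: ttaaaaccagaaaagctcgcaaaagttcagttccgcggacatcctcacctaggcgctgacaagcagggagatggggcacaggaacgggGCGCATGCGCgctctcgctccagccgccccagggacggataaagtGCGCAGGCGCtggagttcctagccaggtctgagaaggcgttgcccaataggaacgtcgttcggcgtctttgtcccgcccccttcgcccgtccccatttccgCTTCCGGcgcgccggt
Cox8a: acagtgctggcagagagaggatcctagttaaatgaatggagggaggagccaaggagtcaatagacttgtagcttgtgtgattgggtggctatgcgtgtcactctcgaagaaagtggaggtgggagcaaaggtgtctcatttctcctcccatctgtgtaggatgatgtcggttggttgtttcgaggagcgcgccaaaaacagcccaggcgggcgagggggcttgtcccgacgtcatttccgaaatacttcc
Cox7a1: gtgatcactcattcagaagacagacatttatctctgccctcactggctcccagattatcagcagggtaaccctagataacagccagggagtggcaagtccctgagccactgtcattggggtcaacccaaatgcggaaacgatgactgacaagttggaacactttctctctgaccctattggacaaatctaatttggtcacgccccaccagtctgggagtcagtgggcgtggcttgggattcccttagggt
Cox8b: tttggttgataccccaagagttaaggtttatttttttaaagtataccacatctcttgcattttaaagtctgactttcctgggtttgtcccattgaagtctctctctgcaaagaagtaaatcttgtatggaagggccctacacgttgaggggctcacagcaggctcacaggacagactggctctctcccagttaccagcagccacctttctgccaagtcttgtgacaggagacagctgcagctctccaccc
The Cox6a1 window holds 3 matches that do not overlap, of which 2 are to the NRF1 motif and 1 is to CCGGAAG. The other 3 windows hold no match to these letters. The Cox6a1 window has 26 CpG dinucleotides, against 11 for Cox8a, 4 for Cox7a1 and 1 for Cox8b.

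Promoter windows were found for 66 of the 81 genes, and none was found for Cox6a2. The NRF1 motif was present in 10 of the 66 windows (15.2%) and in 3.9% of all 27025 promoter windows of the same length. The genes that hold it include Sdha and Sdhd of complex II, Ndufa8, Ndufa5 and Ndufs5 of complex I, and Atp5k, Atp5h and Atp5g2 of ATP synthase. CCGGAAG was present in 11 windows (16.7%), against 7.1% of all windows, among them those of Uqcr11, Uqcrh, Ndufs3 and Cox6b1. TCAAGGTCA, the site of oestrogen-related receptors, was present only in the window of Atp5g3, which is 1.5% of the members against 0.4% of all windows. AAGATGGC, the core of the YY1 site searched on both strands like the others, was present in 0 of the 66 windows and in 1.6% of all. The median window of the members had 14 CpG dinucleotides, against 6 over all windows. These are counts of letters in short windows, and the arrays hold no measure of binding.

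The members were bright and varied little between mice. Of the 78, 65 had a mean level of 12 or more and 25 of 13 or more, against 830 and 144 of the 12351 genes. The SD between mice of a group, over mice with low Glycam1, had a median of 0.074 over the members and 0.15 over all genes tested. This difference went with brightness: among genes of level 12 or more, the median SD was 0.071 for 65 members and 0.069 for 765 other genes. The highest intensity in the whole table was 15890, so probe sets of level 13 and above lay near the top of the measured range.

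**Figure D1:**
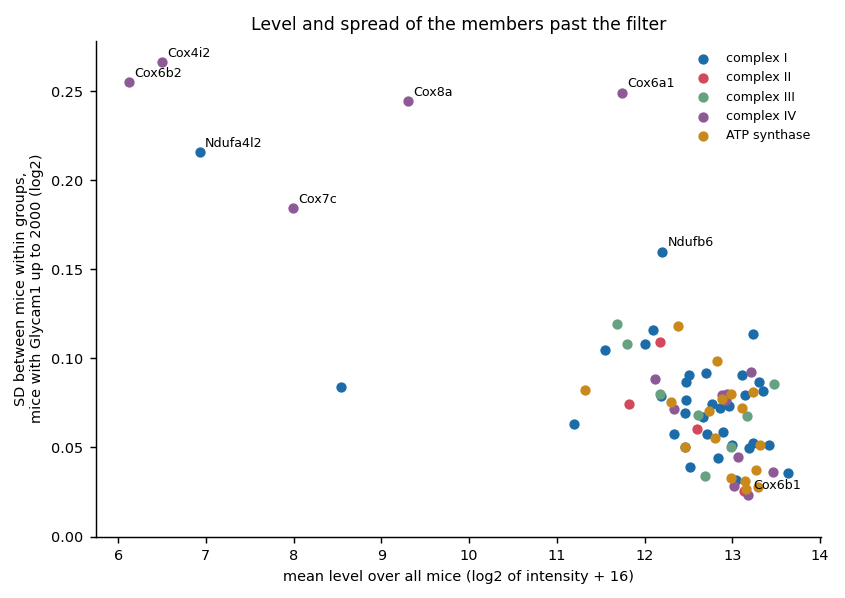
Each point is one of the 78 genes past the filter, coloured by complex. The horizontal axis is the mean level over all mice (log2 of intensity plus 16) and the vertical axis is the SD between mice within groups, over mice with Glycam1 up to 2000. Most members sit at level 12 or more with an SD below 0.1, and Cox4i2, Cox6b2, Cox6a1, Cox8a, Ndufa4l2, Cox7c and Ndufb6 stand above 0.15.

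The tightest member was Cox6b1, which lies at the contact of the cytochrome c oxidase dimer, with an SD of 0.023. The widest was Cox4i2, the hypoxia-linked form of subunit 4, with 0.27. Cox6b2, the testis form of subunit 6b, had an SD of 0.25 at a mean level of 6.12, near the filter. Cox6a1 and Cox8a, with 0.25 and 0.24, varied more between mice of a group than their muscle counterparts Cox6a2 and Cox8b, with 0.079 and 0.080. Over the 78 members, 63 had an SD below 0.1.

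Cox6a1 and Cox8a were high in each of the 12 arrays with high Glycam1. These arrays were compared with the mean of the low-Glycam1 mice of their own group. Cox6a1 was higher by a median of 0.73 (0.45 to 1.18) and Cox8a by 0.61 (0.26 to 1.18), both in 12 of 12 arrays. Ndufa1, an accessory subunit of complex I, was also higher in 12 of 12 arrays, by a median of 0.10. These were 3 of 78 members, while 2111 of all 12351 genes were higher in all 12 arrays. Both probe sets of Cox6a1 and the other 2 of Cox8a lay above the group mean in 12, 12, 12 and 11 of the arrays. Other genes differed in the same arrays: the adipocyte genes Adipoq and Cidec were higher by medians of 1.76 and 2.66 and the macrophage genes Cd68 and Mrc1 by 1.34 and 0.82, each in 12 of 12, and the slow fibre genes Myoz2 and Tnnt1 were at -0.57 and -0.29. The mean of the 6 adipocyte markers was 10.46 to 11.87 in these arrays and 8.34 to 11.79 in the others, and that of the 6 macrophage markers 9.35 to 10.89 and 7.86 to 10.44. Their part in the values of Cox6a1 and Cox8a was not tested.

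The muscle counterparts deviated less. The median deviation was -0.09 for Cox6a2, -0.04 for Cox7a1 and 0.11 for Cox8b, with 4, 4 and 10 of 12 arrays above their group. The ubiquitous Cox7a2 lay at -0.03, so not every ubiquitous form was high. Among the dim members, Cox4i2 was higher by 0.39 and Cox6b2 by 0.37, each in 10 of 12 arrays.

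Other members lay lower in these arrays. Ndufa4l2, a relative of the Ndufa4 subunit that hypoxia induces, and Ndufb1, an accessory subunit of complex I, were below their group in 12 of 12 arrays, by medians of -0.31 and -0.30. The membrane anchors of complex II followed, Sdhd at -0.24 and Sdhc at -0.19, and so did Uqcrc1, a core protein of complex III, at -0.19. Over the 78 members the median deviation was -0.01, and 6 of 78 genes lay beyond 0.3, against 4009 of all 12351 genes. Below their group in all 12 arrays were 2 of 78 members and 1121 of all 12351 genes.

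A single mouse of smoke at 12 weeks was measured on 2 arrays, of which 1 had high Glycam1. Between these arrays Cox6a1 differed by 1.09 (11.18 and 12.26) and Cox8a by 0.47 (9.11 and 9.58), with the higher value on the array of high Glycam1. Sdhd differed by -0.69, Uqcrc1 by -0.64 and Ndufb1 by -0.61 in that array, while Cox7a1 differed by -0.03. Ndufa4l2, low in the other comparisons of this kind, differed by 0.06, and the muscle form Cox8b by 0.24. Not all the spread of Cox6a1 and Cox8a went with Glycam1. Replicate 2 of air at 24 weeks, with a Glycam1 intensity of 36.5, had the highest Cox8a of its group (10.44) and the highest Cox6a1 (12.64). Its mean level of the 6 adipocyte markers was 11.79, above the other 43 low-Glycam1 arrays, which began at 8.34.

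**Figure D2:**
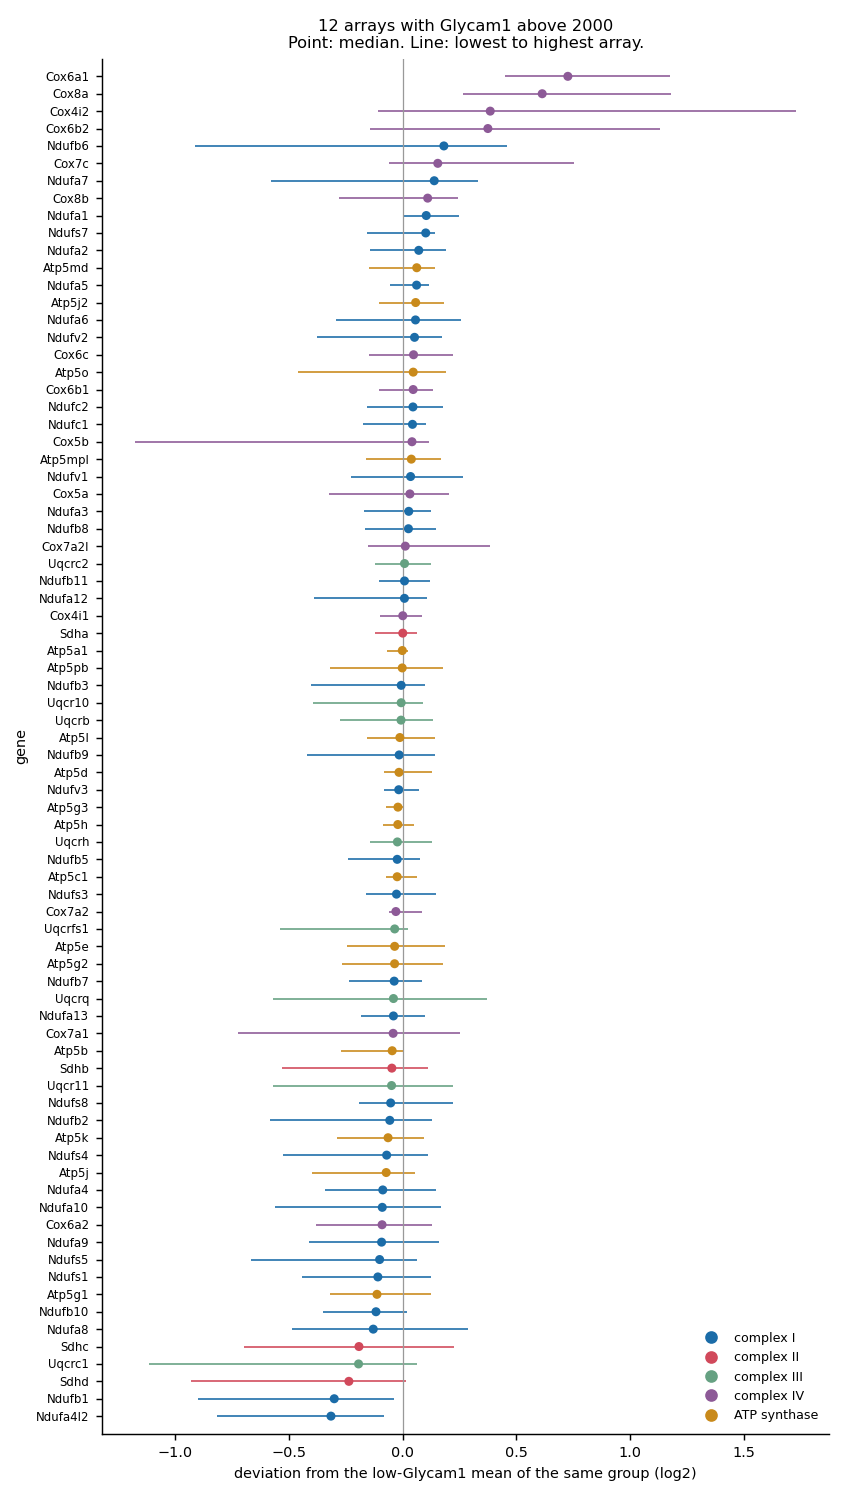
For each of the 78 genes, the point is the median over 12 arrays of high Glycam1 of the deviation from the low-Glycam1 mean of the same group, and the line runs from the lowest to the highest array. Cox6a1 and Cox8a at the top have all arrays above 0, and Ndufa4l2 and Ndufb1 at the bottom have all arrays below 0.

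**Figure D3:**
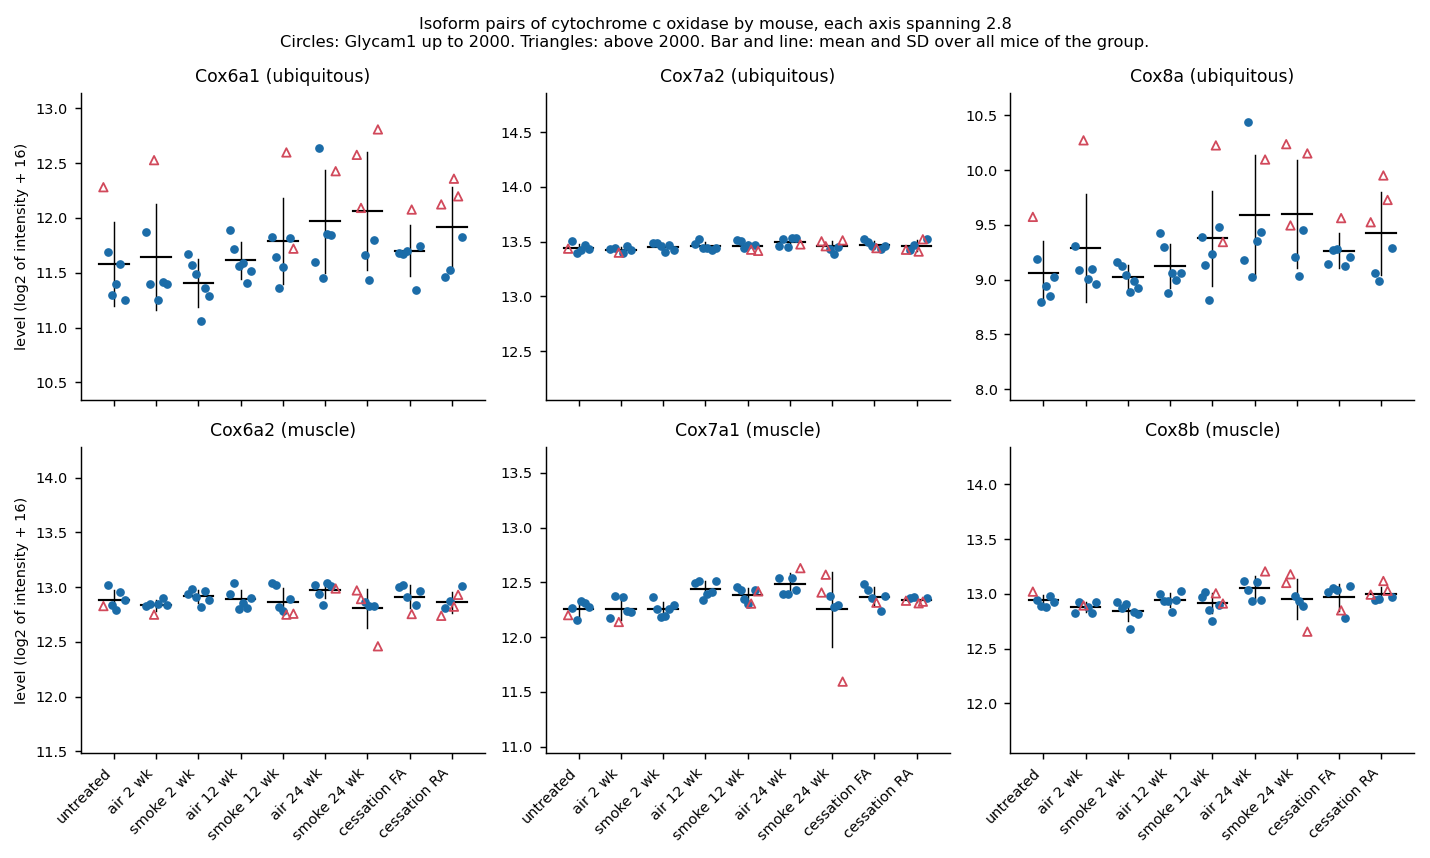
Levels of 3 isoform pairs of cytochrome c oxidase by mouse and group, with the ubiquitous form above and the muscle form below, each axis spanning the same range. Triangles are mice with Glycam1 above 2000. For Cox6a1 and Cox8a the triangles lie mostly above the circles, while Cox6a2, Cox7a1 and Cox8b hold to narrow bands except in replicate 6 of smoke at 24 weeks.

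Across mice, some isoforms moved together. Over 44 mice, taking arrays of low Glycam1 only and deviations from group means, 8 pairs were computed. The muscle forms Cox7a1 and Cox8b had a Pearson r of 0.61 and a Spearman rho of 0.59 (permutation p 2e-05 and 4e-05, adjusted 8e-05 and 0.00019, with 100000 resamples). Without the 2 mice farthest from the median Cox7a1, r was 0.55. Cox7a1 and the slow fibre myosin Myh7 had r 0.43 and rho 0.48 (adjusted permutation p 0.0049 and 0.0017), and r 0.41 without the farthest 2 mice.

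Core subunits of complex I and complex II, Ndufs1 and Sdhb, had r 0.60 and rho 0.56 (adjusted permutation p 8e-05 and 0.00019), and r 0.51 without the farthest 2 mice. Ndufs1 and Atp5b, the catalytic beta subunit of ATP synthase, had r -0.20 and rho -0.19 (adjusted permutation p 0.22 for both). Within isoform pairs, Cox7a1 and Cox7a2 had r 0.35 and rho 0.33 (adjusted permutation p 0.028 and 0.037), and r fell to 0.26 without the farthest 2 mice. Cox8b and Cox8a had r 0.16 and rho 0.19 (adjusted permutation p 0.29 and 0.22).

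Relations of Cox6a2 depended on the probe set. With the brighter probe set, Cox6a2 and Cox6a1 had r 0.48 and rho 0.54 (adjusted permutation p 0.0022 and 0.00036), and Cox6a2 and Cox7a1 had r 0.54 and rho 0.57 (adjusted permutation p 0.0004 and 0.00019). With the mean of each gene's probe sets, r became -0.59 and -0.01. All points share the array as a source, so the brightness of a whole array enters every pair.

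Smoke was compared with air at each time. No member was called after 2 weeks, when 0 of 12351 genes were (0%). An unadjusted p under 0.05 was found for 1 of 78, against 255 of 12351 genes. The members' median difference was 0.01 with 45 of 78 above 0, against -0.02 and 42.5% over all genes. The 95% interval of the difference lay within 0.5 of 0 for 74 of 78 members and within 0.25 for 71. Cox4i2, Cox6a1, Cox6b2 and Cox8a were the exceptions at 0.5. The lowest p values belonged to Ndufa13, an accessory subunit also named Grim19, at 0.10 ± 0.05, and to Ndufs3, a core subunit, at 0.11 ± 0.05, with an adjusted p of 1 for both.

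After 12 weeks no member was called either, against 0.0081% of all genes. For 0 members was the unadjusted p under 0.05, against 230 of 12351 genes. The median difference was -0.02, with 15 of 78 members above 0 against 47.1% of all genes, and 75 of 78 intervals lay within 0.5 of 0. Without the high-Glycam1 arrays 26 of 78 lay above 0, against 40.7% of all genes. Ndufa4l2 had the lowest p, at -0.22 ± 0.14, followed by Ndufs5, an accessory subunit of complex I, at -0.09 ± 0.06 (limma adjusted p 1 for both).

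After 24 weeks of smoke most members lay slightly below air, by amounts that did not pass the test. The median difference was -0.08, with 15 of 78 members above 0, against -0.03 and 44.8% over all genes. No member was called by limma, against 0.47% of all genes, and 28 of 78 had an unadjusted p under 0.05, against 3044 of 12351. Complex II lay lowest, with a median of -0.16 and 0 of 4 above 0, then complex III at -0.12 (1 of 8), complex I at -0.10 (3 of 34) and ATP synthase at -0.06 (3 of 17). Complex IV was split, with 8 of 15 above 0. With all arrays, for no member were the smoke and air mice apart without overlap, against 0.243% of all genes apart and higher and 0.47% apart and lower.

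The members of lowest p at 24 weeks were Ndufa8 and Uqcr11. Ndufa8, an accessory subunit of complex I, was 11.90, 12.17 and 12.25 in air (lowest, median and highest of 6 mice) and 11.40, 11.91 and 12.17 in smoke. The difference was -0.26 ± 0.08 (limma adjusted p 0.076). Uqcr11, a small subunit of complex III, was 12.16, 12.33 and 12.38 in air and 11.56, 12.16 and 12.35 in smoke, a difference of -0.22 ± 0.07 (limma adjusted p 0.077).

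In both genes the lowest smoke mouse was replicate 6, the highest was replicate 1, and the ranges of smoke and air overlapped. Without replicate 6, Ndufa8 differed by -0.17 and Uqcr11 by -0.12 (limma adjusted p 0.37 and 0.39). Without the high-Glycam1 arrays the differences were -0.22 and -0.17 (limma adjusted p 0.12 and 0.13).

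Next in p came Cox7a1, the muscle form of subunit 7a, then Ndufa6, an accessory subunit of complex I, and Uqcrq, a small subunit of complex III. Cox7a1 was 12.39, 12.48 and 12.63 in air and 11.59, 12.34 and 12.57 in smoke, and it differed by -0.23 ± 0.08 (limma adjusted p 0.085). Without replicate 6 the difference was -0.10. Ndufa6 differed by -0.22 ± 0.07 and Uqcrq by -0.26 ± 0.09 (limma adjusted p 0.086 and 0.094). Without replicate 6 they were at -0.16 and -0.14 (limma adjusted p 0.38 and 0.46), and with the mean of its probe sets Uqcrq was at -0.03 (limma adjusted p 0.81).

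The complex II genes showed how far 1 mouse weighed. Sdhc differed by -0.25 ± 0.09, Sdhd by -0.19 ± 0.10, Sdhb, the iron-sulphur subunit, by -0.14 ± 0.06 and Sdha, the flavoprotein, by -0.04 ± 0.03. The complex II median of replicate 6 was -0.64, on a scale where 0 is the mean of all mice, and the next lowest smoke mouse was at -0.09. Without replicate 6 the median difference of complex II was -0.05 and that of complex III -0.06, while complex I was at -0.05 and ATP synthase at -0.04. Uqcrc1 of complex III was at -0.27 ± 0.12 with all mice and -0.09 without replicate 6.

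In complex IV the muscle forms Cox7a1, Cox6a2 and Cox8b differed by -0.23, -0.17 and -0.10, and the ubiquitous Cox6a1, Cox8a and Cox7a2 by 0.09 ± 0.22, 0.01 ± 0.22 and -0.04 ± 0.03. Without replicate 6 of smoke, Cox6a2 was at -0.10, Cox8b at -0.04, Cox6a1 at -0.05 and Cox8a at -0.10, and the complex IV median moved from 0.01 to -0.04. A difference between forms was not tested. Without the high-Glycam1 arrays, of which smoke had 3 and air 1, Cox6a1 and Cox8a turned to -0.24 and -0.25. The complex IV median then was -0.08 with 3 of 15 above 0. None of these differences passed the test in either fit.

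Over all members, leaving out the high-Glycam1 arrays gave a median of -0.07 with 13 of 78 above 0, against -0.01 and 47.1% over all genes. None of them was called then, against 0.364% of all genes. An unadjusted p under 0.05 was then found for 20 of 78, against 2530 of 12351 genes. A fit that weights arrays by their quality, which gave mice with a high-Glycam1 array a median weight of 0.36 and the others 1.44, called 4 members lower: Atp5g2, Ndufa8, Uqcr11 and Uqcrq. In that fit 4.6% of all genes were called. Leaving out smoke replicate 1 called 7 members (4.28% of all genes) and replicate 2 called 4 (3.84%). Without smoke replicate 3 or air replicate 3, 1 was called each, against 4.43% and 2.31% of all genes.

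Further probe sets of the same genes gave other values for smoke against air at 24 weeks. Of the 76 past the filter, 18 lay above 0 with a median of -0.09, and 27 had the opposite sign to the one used. The dimmer probe sets were lower for Ndufs7 (-0.26 beside -0.05), Ndufb7 (-0.18 beside -0.01) and Uqcr10 (-0.45 and -0.26 beside -0.15). For Ndufb6 the dimmer one was at -0.16 beside 0.05. For Sdhd it was at 0.01 beside -0.19, for Cox6a2 at 0.05 beside -0.17 and for Uqcrq, at a level of 6.44, at 0.20 beside -0.26.

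All 9 slow fibre markers lay lower after 24 weeks of smoke than in air, by a median of -0.43 (-0.61 without the high-Glycam1 arrays), and 0 were called. On low-Glycam1 arrays their mean level ran from 11.99 to 12.69 in air and from 10.99 to 12.63 in smoke, and replicate 6 of smoke was at 10.89. The 6 endothelial markers were also all lower, by a median of -0.29, with 1 called. The 11 lymph node and lymphocyte markers were all higher, by a median of 1.62, and by 0.07 with 7 of 11 higher without the high-Glycam1 arrays. Their part in the members' values was not tested.

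**Figure D4:**
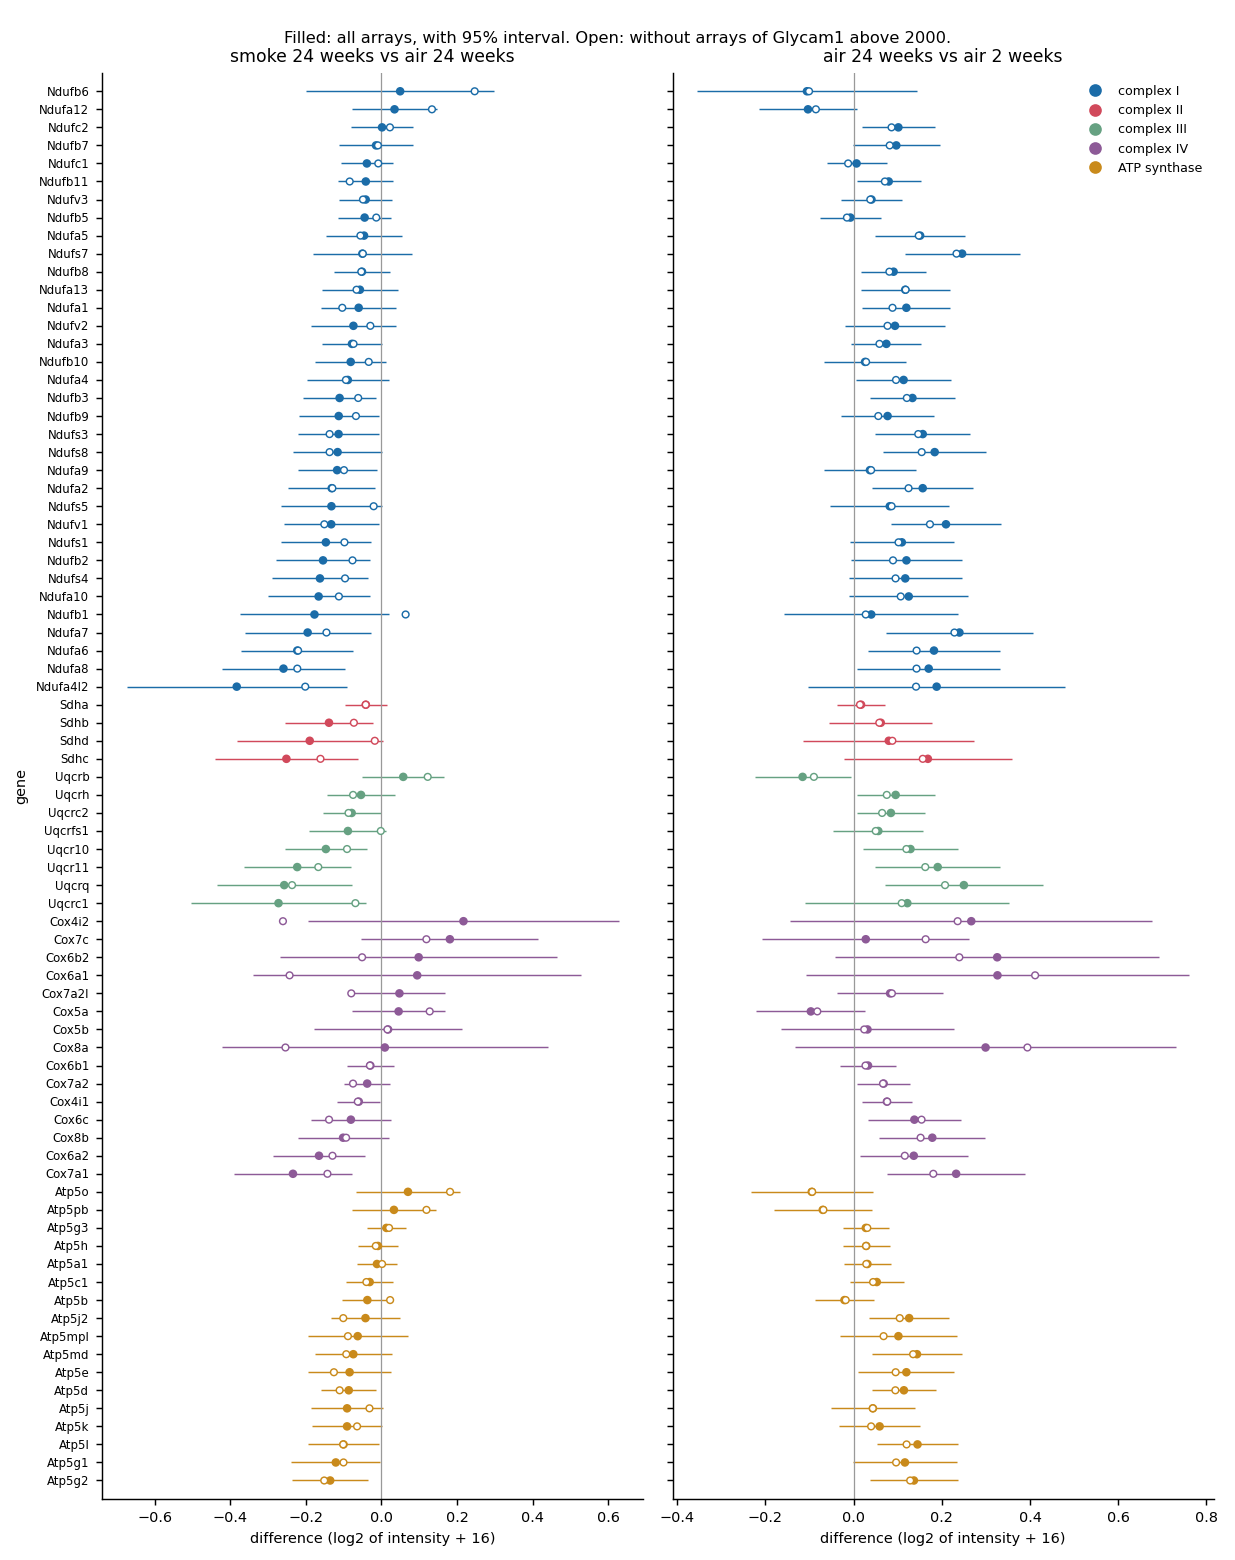
Differences of the 78 genes for smoke against air at 24 weeks (left) and for air at 24 against 2 weeks (right), in log2 of intensity plus 16. Filled points with lines are all arrays with 95% intervals, open points leave out arrays of Glycam1 above 2000, and colours mark complexes. On the left 15 filled points lie above 0, on the right 70, and both panels use the same air mice of 24 weeks.

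Over the 3 times together, smoke and air differed by a median of -0.03 in the members, with 10 of 78 above 0 against 42.3% of all genes. Among them 0 were called by limma, against 0.0324% of all genes. An unadjusted p under 0.05 was found for 4 of 78, against 1132 of 12351 genes. Ndufa6 at -0.10 ± 0.04 and Uqcrq at -0.11 ± 0.05 had the lowest p (limma adjusted p 0.51 and 0.52). The smoke effect at 24 weeks less that at 2 weeks was a median of -0.10 with 14 of 78 above 0, against -0.01 and 48.4% over all genes. No member was called in this test of the difference, against 0.0324% of all genes. Its unadjusted p was under 0.05 for 21 of 78, against 2296 of 12351 genes.

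The lowest p values of that test were those of Ndufs3 at -0.22 ± 0.08 and Cox6a2 at -0.25 ± 0.09 (limma adjusted p 0.19 for both). Ndufs3 was 12.78, 13.06 and 13.14 in air and 13.02, 13.16 and 13.23 in smoke at 2 weeks. At 24 weeks it was 13.03, 13.21 and 13.24 in air and 13.002, 13.05 and 13.19 in smoke. The order of the 2 exposures thus turned between times within ranges that overlap. With array weights 9 members were called in this test, 2 higher and 7 lower, against 5.96% of all genes.

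Air mice of 24 weeks lay above air mice of 2 weeks in most members. The median difference was 0.10, with 70 of 78 above 0, against 0.03 and 58.5% over all genes. No member was called by limma, against 0.219% of all genes, and 34 of 78 had an unadjusted p under 0.05, against 1462 of 12351. Complex IV had a median of 0.14 (14 of 15 above 0), complex I 0.11 (31 of 34), complex III 0.11 (7 of 8), complex II 0.07 (4 of 4) and ATP synthase 0.06 (14 of 17). The air mice of 24 weeks are also the reference of the smoke and cessation comparisons at that age, so these medians are not independent of each other.

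Ndufs7, a core subunit that carries an iron-sulphur cluster, had the lowest p. It was 12.85, 13.15 and 13.18 in air at 2 weeks and 13.15, 13.40 and 13.46 at 24 weeks. The difference was 0.25 ± 0.06 (limma adjusted p 0.1), and 0.31 in its other probe set. Replicate 2 was low among the mice of 2 weeks and replicate 3 among those of 24 weeks. With each mouse left out in turn the difference of Ndufs7 ran from 0.20 to 0.29. Without replicate 3 of 24 weeks Ndufs7 was called by limma, at an adjusted p of 0.033, where 0.283% of all genes were called. Ndufv1, the subunit that binds NADH, followed at 0.21 ± 0.06 (limma adjusted p 0.2).

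Cox7a1 rose with the high-Glycam1 arrays left out. It was 12.14, 12.24 and 12.38 at 2 weeks, 12.34, 12.45 and 12.51 at 12 weeks and 12.39, 12.48 and 12.63 at 24 weeks in air. The groups of 2 and 24 weeks did not overlap. With all arrays the difference between 24 and 2 weeks was 0.23 ± 0.08 (limma adjusted p 0.24). Without the high-Glycam1 arrays it was 0.18 (limma adjusted p 0.032), where 2.71% of all genes were called and Cox7a1 was the only member.

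Groups of 2 and 24 weeks were apart without overlap in 5 of 78 members, all higher at 24 weeks, against 0.793% of all genes. The 5 were Cox7a1, Cox8b, Cox4i1, the common form of subunit 4, Ndufb3, an accessory subunit of complex I, and Atp5a1, the alpha subunit of ATP synthase. Cox8b was 12.82, 12.89 and 12.93 at 2 weeks and 12.93, 13.07 and 13.20 at 24 weeks. For Cox4i1 the values were 12.95, 12.99 and 13.03 against 13.05, 13.07 and 13.10. The differences of these genes were small, 0.18 for Cox8b and 0.03 for Atp5a1.

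With array weights, 24 of 78 members were called higher and 0 lower at 24 weeks, against 7.94% of all genes called. They were 11 of complex I (Ndufa2, Ndufa7, Ndufa8, Ndufb2, Ndufb3, Ndufb8, Ndufc2, Ndufs3, Ndufs7, Ndufs8 and Ndufv1), 3 of complex III (Uqcr10, Uqcr11 and Uqcrq), 5 of complex IV (Cox4i1, Cox6a2, Cox6c, Cox7a1 and Cox8b) and 5 of ATP synthase (Atp5d, Atp5g2, Atp5j2, Atp5l and Atp5md). None belonged to complex II.

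The 8 members below 0 were Uqcrb, Ndufb6, Ndufa12, Cox5a, Atp5o, Atp5pb, Atp5b and Ndufb5. Their differences ran from -0.12 for Uqcrb to -0.01 for Ndufb5. For 5 of them a further probe set past the filter lay above 0: 0.08 for Atp5o, 0.08 for Atp5pb, 0.09 for Ndufb6, 0.09 for Ndufb5, and 0.00 to 0.04 for the 3 of Ndufa12. Cox5a had 1 of 2 further probe sets above 0, and the other of Uqcrb lay below 0 as well. Members above 0 had such probe sets too. Of the 76 further probe sets past the filter, from 47 members, 62 lay above 0 with a median of 0.09. Of them 20 had the opposite sign to the one used, among 10 members above 0 and 6 below. Among the members above 0 were Atp5a1 (-0.05 and 0.10), Cox6c (-0.08), Cox6a2 (-0.06) and Sdhd (-0.08). Probe sets of 1 gene thus disagreed in sign, and 21 of the 78 members were read by a probe set with an s or x suffix, which marks probes that can match several transcripts.

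Between 2 and 12 weeks of air the members' median difference was 0.06 with 71 of 78 above 0, against 0.00 and 50.9% over all genes. No member was called by limma, against 0.0081% of all genes. An unadjusted p under 0.05 was found for 6 of 78, against 765 of 12351 genes. Ndufa5, an accessory subunit of complex I, at 0.12 ± 0.05 and Cox7a1 at 0.19 ± 0.08 had the lowest p (limma adjusted p 0.59 for both). With array weights Cox7a1 was called (1 of 78, against 1.95% of all genes).

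Markers of slow fibres, fat and macrophages are given beside these values. Air mice of 24 weeks had all 9 slow fibre markers higher than those of 2 weeks by a median of 0.48, all 6 adipocyte markers by 0.41 and all 6 macrophage markers by 0.63, with 0 called in each list. On low-Glycam1 arrays the slow fibre mean ran from 11.58 to 12.13 at 2 weeks and from 11.99 to 12.69 at 24 weeks, and the adipocyte mean from 8.90 to 10.53 and from 8.94 to 11.79. Their part in the members' differences was not tested. Air mice of 2 weeks against untreated mice gave a median of -0.02 with 18 of 78 above 0, against 0.01 and 53% over all genes. In limma 0 members were called, against 0.518% of all genes. For 0 members was the unadjusted p under 0.05, against 911 of 12351 genes. With array weights 0 members were called too, against 5.37% of all genes.

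**Figure D5:**
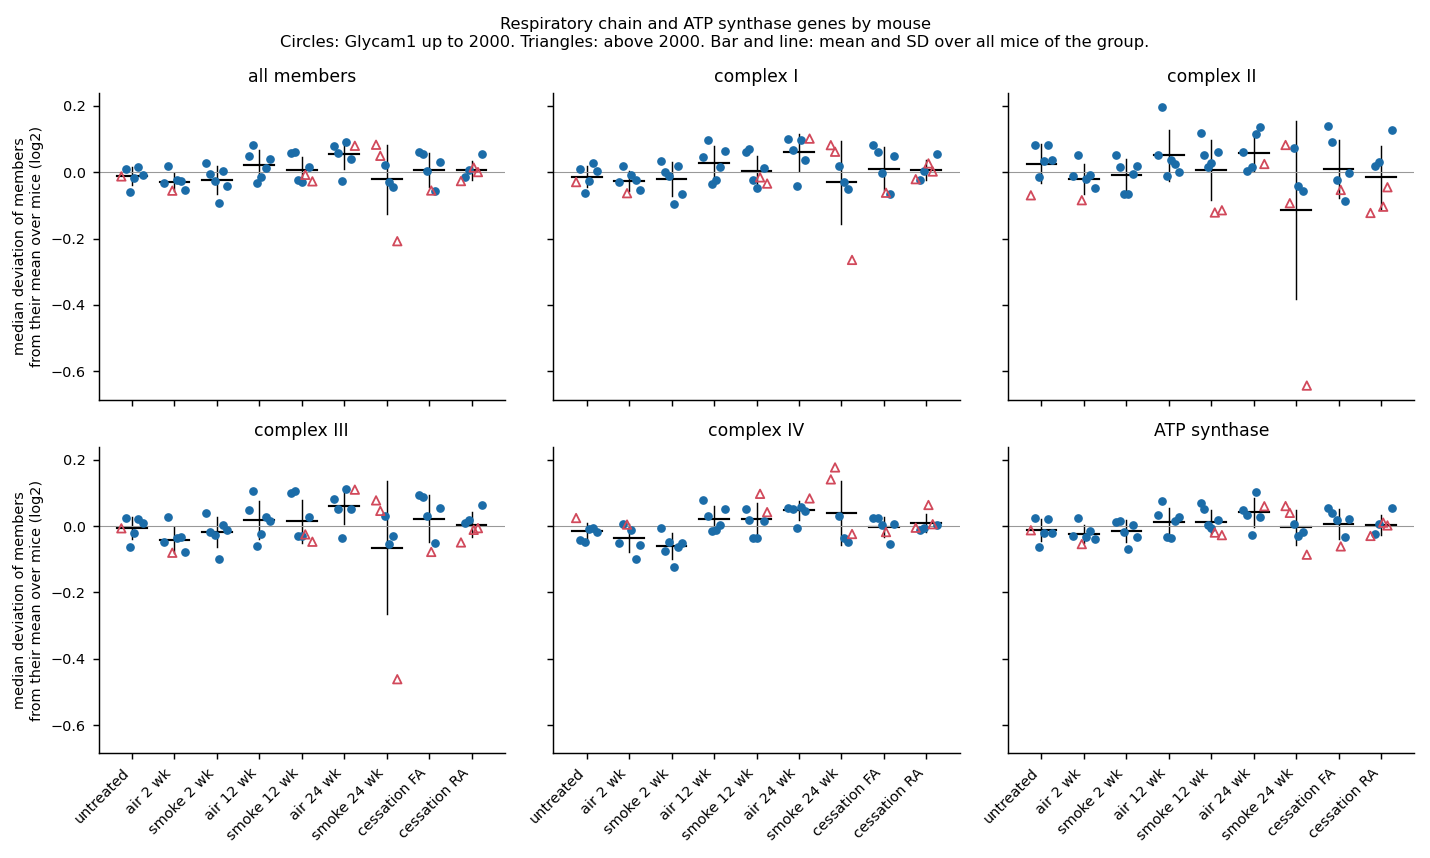
Each point is 1 mouse: the median, over the members of a complex, of the gene's deviation from its mean over all mice (log2). Triangles are mice with Glycam1 above 2000, and bars and lines are the mean and SD of each group. Most groups overlap. In the complex IV panel the smoke mice of 2 weeks, at -0.0060 or below, lie just below the air mice of 24 weeks, at -0.0056 or above. These groups differ in exposure and in time together and were not compared. Replicate 6 of smoke at 24 weeks lies at -0.64 for complex II and -0.46 for complex III.

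Both cessation arms lay slightly below the air mice of 24 weeks. In cessation FA the members' median was -0.04 with 11 of 78 above 0, against -0.02 and 44.8% over all genes, with 0 members called by limma, against 0.081%. In cessation RA the median was -0.05 with 9 of 78 above 0, against -0.01 and 46.8%, with 0 called by limma, against 1.76%. Unadjusted p values under 0.05 were found for 3 members in FA and 5 in RA, against 865 and 1688 of 12351 genes. By mouse, the members' median had a group mean of 0.053 in air, 0.007 in FA and 0.005 in RA. Without the high-Glycam1 arrays these means were 0.048, 0.019 and 0.015. The arms share the air mice of 24 weeks as reference with the smoke comparison.

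Single members of lowest p were Cox6b2 in FA, at -0.46 ± 0.18, with Ndufa1 at -0.11 ± 0.05 (limma adjusted p 0.56 and 0.68). In RA they were Atp5d, the delta subunit of ATP synthase, at -0.08 ± 0.04, and Ndufa6 at -0.16 ± 0.07 (limma adjusted p 0.28 and 0.3). Cox7a1 in RA was 12.31, 12.34 and 12.36, below every air mouse of 24 weeks, 1 of 78 members against 1.52% of all genes so placed. The difference was -0.15 ± 0.08 (limma adjusted p 0.4). Sdha was apart in FA, with a highest mouse of 13.145 against a lowest air mouse of 13.152, 1 of 78 against 0.534%. It differed by -0.03 ± 0.03, and the mean of its probe sets gave 0.06.

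Continued smoke against the cessation arms again showed no call. Against FA the members' median was -0.03 with 22 of 78 above 0, beside -0.01 and 47.9% over all genes, of which 3.55% were called. An unadjusted p under 0.05 was found for 6 members and 3424 of 12351 genes. Against RA the members' median was -0.03 with 16 of 78 above 0, beside -0.01 and 47.8% over all genes, of which 2.34% were called. There 3 members and 1953 of 12351 genes had an unadjusted p under 0.05. Leaving out replicate 6 of smoke alone moved the medians by complex. Against FA complex I was then at 0.0046, complex II at -0.0084, complex III at -0.0003, ATP synthase at 0.0073 and complex IV at 0.0272. Against RA they were, in the same order, at 0.0087, 0.0002, 0.0043, 0.0090 and 0.0246. Smoke stayed lower when all high-Glycam1 arrays, among them replicate 6, were left out. The members' median by mouse then had a group mean of -0.018 in smoke, 0.019 in FA and 0.015 in RA.

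Cox6b2 was the member of lowest p against FA and against RA. It was 6.05, 6.32 and 7.13 in continued smoke, 5.42, 5.96 and 6.15 in FA and 5.42, 5.91 and 6.70 in RA.

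The differences of Cox6b2 were 0.55 ± 0.18 against FA and 0.48 ± 0.18 against RA (limma adjusted p 0.065 and 0.17). Its smoke mice of highest level were replicates 2 and 1, both with high Glycam1, and without such arrays the difference from FA was 0.36 and that from RA 0.53 (limma adjusted p 0.28 and 0.14). From RA the smoke mice were then apart without overlap, with only 3 mice left in each group. The share of all genes so placed was not computed for these arrays, so nothing is concluded from it. Cox7c, a small subunit of complex IV, was 7.98, 8.18 and 8.32 in smoke and 7.52, 7.84 and 8.11 in FA. It differed by 0.34 ± 0.12, and by 0.34 without those arrays (limma adjusted p 0.073 and 0.15). Without those arrays the smoke mice, of which 3 were left, also lay above FA without overlap in Cox7c, with the same limit. Cox7c was read by a probe set of shared sequence at a low level, 7.99.

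Leaving out smoke replicate 4, smoke replicate 5 or FA replicate 4 gave 2, 2 and 1 calls against FA, where 13.2%, 10.7% and 4.38% of all genes were called. Leaving out RA replicate 4 gave 1 call against RA, where 2.74% of all genes were called. The cessation arms were also set against each other. Their members' median differed by -0.01, with 29 of 78 above 0 in RA less FA, against 0.00 and 51.8% over all genes. Limma called 0 members, against 0.0243% of all genes. In this comparison 0 members had an unadjusted p under 0.05, against 512 of 12351 genes. Cox5b, a nuclear-coded subunit of complex IV, had the lowest p at -0.19 ± 0.10. The value rested on RA replicate 5, at 11.89 while the other RA mice lay at 13.04 or above, and without it the difference was 0.01. In a different comparison, RA against air of 24 weeks, the other 4 probe sets past the filter of Cox5b gave -0.06 to -0.16. Their values for RA against FA are not given here.

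Leaving out the high-Glycam1 arrays gave no call among the members in these comparisons either. The share of all genes called was then 0.235% for FA and 3.97% for RA against air, 1.89% for smoke against FA, 3.28% for smoke against RA and 0.0324% for RA against FA. It was 1.91% for air at 2 weeks against untreated, 0.907% for air at 12 against 2 weeks, 0.154% for the mean over times and 0.146% for the change of the smoke effect. With array weights 0 members were called for smoke at 2 weeks (0% of all genes) and 12 weeks (0.0162%), the mean over times (0.494%), FA and RA against air (0.364% and 7.33%), smoke against FA and RA (4.46% and 4.87%) and RA against FA (0.259%). With all arrays, groups without overlap were not seen among the members where RA was above air (0.656% of all genes), where smoke was above or below FA (0.632% and 0.664%) or RA (0.291% and 0.372%), or between the arms (0.178% and 0.364%). The same held for air at 2 weeks above or below untreated (0.793% and 0.858%) and for air at 12 weeks above or below 2 weeks (0.81% and 0.437%).

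Genes that work with the complexes were described from lists outside the rule. At 24 weeks of smoke 3 of 44 assembly factors lay above 0, with a median of -0.18, and so did 0 of 12 coenzyme Q synthesis genes, at -0.20, and 1 of 13 citric acid cycle genes, at -0.10. None of these lists had a called gene with all arrays. Without the high-Glycam1 arrays the counts were 21 of 44, 4 of 12 and 4 of 13, and the medians -0.02, -0.05 and -0.03. The members were at -0.08 with all arrays and -0.07 without those arrays.

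Citrate synthase (Cs), a common gauge of mitochondrial content, differed by -0.03 ± 0.03 at 24 weeks of smoke, cytochrome c (Cycs) by 0.10 ± 0.11 and cytochrome c1 (Cyc1) by -0.10 ± 0.07. Among regulators, Esrra, an oestrogen-related receptor of mitochondrial genes, differed by -0.29 ± 0.13. Tfam, a transcription factor that also packs mitochondrial DNA, differed by -0.16 ± 0.09, and the coactivator Ppargc1a by -0.02 ± 0.18. None of these 6 passed the test. The 6 values are with all arrays, of which smoke had 3 of high Glycam1 and air 1. Over the 12 such arrays of all groups, Esrra and Ppargc1a each lay below their group in 11, by medians of -0.30 and -0.38. Cs, Cycs and Cyc1 had medians of -0.01, -0.05 and 0.07 there. The part of these arrays in the 6 values was not tested. Of 26 symbols listed for mitochondrially encoded genes, which give each gene under alternative spellings, 1 was tested.

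Called genes on these lists were few. Nrip1, a corepressor of oxidative genes, was lower than air in cessation FA (-0.38 ± 0.08) and RA (-0.33 ± 0.08), and higher in continued smoke than in either arm (0.53 ± 0.08 and 0.48 ± 0.08). Its limma adjusted p values were 0.039, 0.016, 4.2e-05 and 0.00019. Coq10b, a coenzyme Q binding protein, was lower in RA than in air (-0.58 ± 0.10, limma adjusted p 0.00031) and continued smoke was above RA by 0.40 ± 0.10 (limma adjusted p 0.018). Foxred1, an assembly factor of complex I, differed by -0.32 ± 0.08 in RA against air (limma adjusted p 0.029). Pprc1, a coactivator related to Ppargc1a, was higher in continued smoke than in FA and RA, by 0.30 ± 0.09 in both (limma adjusted p 0.041 and 0.049). Without the high-Glycam1 arrays Foxred1, Pprc1 and the difference of Coq10b between smoke and RA did not pass (limma adjusted p 0.086 for Foxred1, 0.14 and 0.48 for Pprc1 and 0.12 for Coq10b).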

How the data were processed

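RNA of gastrocnemius muscle was amplified, labelled with biotin and hybridised to expression arrays, per the labels' protocols. The authors deposited 1 intensity per probe set and array on a linear scale. The summary of probes and any scaling between arrays are not stated in any label or file header. Of 45037 probe sets, with values from -20.0 to 15890, 34945 carry a single gene symbol in the platform annotation, 932 several and 9160 none, and those with a single symbol were used. Values were floored at -15, 16 was added and log2 taken. Each gene was read by its probe set of highest mean, and genes above the 40th percentile of all probe sets (5.71) were tested.

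The 2 arrays of 1 mouse were averaged. A limma model held 9 groups of 55 mice (46 residual degrees of freedom, 48.2 after moderation), and 13 comparisons were taken with Benjamini-Hochberg adjustment over 12351 genes. Named by rule were members past 0.05 (the 2 of lowest p where none passed), isoform sets, core subunits, the members of largest and smallest SD, called genes of related lists, and Cs, Cycs, Cyc1, Ppargc1a, Esrra and Tfam. Other members, such as Ndufa6 and Uqcrq at 24 weeks, were named after their values were seen. The members and the lists were chosen with earlier results of these data known. Alternatives were other filters, pseudocounts (1 and 64), quantile normalization, centring, the mean of probe sets, robust moderation, array weights, title number as covariate, only the groups compared, and left-out arrays or mice. For the correlations, other pseudocounts, quantile normalization and the mean of probe sets were added after the data were seen. The model was tested on simulated data. Arrays have no read depth, and their number limits the precision. The median SE of a difference was 0.054. Tools were R 4.3.3, limma 3.58.1 and data.table (version 1.17.8), Python 3.11.15, numpy 2.4.6, scipy 1.17.1, pandas 2.3.3 and matplotlib 3.10.9.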

Additional observations from a re-analysis of the deposited data

Results flagged for a closer look

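Levels of 10 members and medians of the complexes were examined for a mouse far from the others of its group, by the ratio of its gap to the group's range. Of 144 groups of values 12 stood out, and 10 of the 12 concerned a mouse with a high-Glycam1 array. Chance gives about 1 in 20 for independent values chosen beforehand, which these are not. Members such as Ndufs7 and Uqcr11 were named for low p, and the medians of complexes include single members examined here.

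Replicate 6 of smoke at 24 weeks was lowest in 5 of the groups of values that stood out. Its complex median was -0.64 for complex II, with the next mouse at -0.09, and -0.46 for complex III, with the next at -0.05. Its levels were 12.46 for Cox6a2, 11.59 for Cox7a1 and 11.56 for Uqcr11.

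High values were Cox6a1 at 12.60 in smoke at 12 weeks replicate 5, Cox8a at 10.27 in air at 2 weeks replicate 3 and at 9.56 in cessation FA replicate 4, and the complex IV median of 0.0634 in cessation RA replicate 4. The complex II median of air at 12 weeks replicate 2, a mouse of low Glycam1, was 0.20 with the next at 0.05. Low values were Cox5b at 11.89 in cessation RA replicate 5, with the next mouse at 13.04, and Ndufs7 at 12.85 in air at 2 weeks replicate 2, a mouse of low Glycam1, with the next at 13.13.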

How the results depend on the processing

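No paired analysis was possible because of the numbers in a title 1 goes with the letter of the group and the other runs across all groups, and neither is said to mark a shared litter, batch or day. With all mice no member was called in any of 13 comparisons, and this held under every alternative run for 7 of them: smoke at 2 weeks, smoke at 12 weeks, the mean over times, both cessation arms against air, the arms against each other, and air at 2 weeks against untreated. Array weights gave 4 calls for smoke at 24 weeks (4.6% of all genes called), 1 for air at 12 against 2 weeks (1.95%), 24 for air at 24 against 2 weeks (7.94%) and 9 for the change of the smoke effect (5.96%). An adjusted p under 0.1 gave 5 for smoke at 24 weeks (6.55%) and 2 for continued smoke against cessation FA (12.3%). There, leaving out 3 arrays (1 each of smoke at 2, 12 and 24 weeks) whose identifiers lie outside the run of the others also gave 2 (10.5%), and whether these arrays were processed apart is not known. Leaving out arrays of Glycam1 above 2000 gave 1 for air at 24 against 2 weeks (2.71%). With each mouse left out in turn the calls ran from 0 to 7 for smoke at 24 weeks, 0 to 1 for air at 24 against 2 weeks, 0 to 2 for continued smoke against FA and 0 to 1 against RA. In the fits with calls, 2.31% to 4.43%, 0.283%, 4.38% to 13.2% and 2.74% of all genes were called. The cause was not tested.

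At 24 weeks of smoke Cox8a turned to -0.0243 with the mean of probe sets, -0.20 with array weights and -0.25 without high Glycam1, and ran from -0.12 to 0.18 with mice left out. Cox6a1 turned to -0.19 with array weights and -0.24 without high Glycam1, and ran from -0.0546 to 0.23. Sdha in cessation FA turned to 0.0585 with the mean of probe sets. Cox5b between the arms ran from -0.25 to 0.0129. With the mean of probe sets r of Cox6a2 with Cox6a1 was -0.59 and with Cox7a1 -0.0092, and r of Cox7a1 with Cox7a2 was 0.26 without the farthest 2 mice (adjusted p 0.14). Many members lay near the top of the measured intensity range, and dimmer probe sets of some genes gave larger or opposite differences, as given for smoke at 24 weeks.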
